A study of Sus scrofa with 9 samples.

Results

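Regenerated porcine coronary arterial endothelial cells were compared with passage 1 cells of the same kind across the genes of an Affymetrix porcine array. The comparison used 6 of the 9 arrays of the study, 3 regenerated and 3 passage 1, taken by their titles alone, and every probe set other than the AFFX control probe sets. Passage 1 cells came from primary culture kept for 1 week and served as the control. Regenerated cells had grown back in the living animal after the endothelium had been removed, and were then scraped off the vessel and kept in culture without being passaged further. The remaining 3 arrays held passage 4 cells, passaged weekly and described in the labels as senescent. No transgene or drug is named for any group, and all cells were collected under basal culture conditions. RNA input to labelling was 1 µg for passage 1 and 0.5 to 1 µg for regenerated cells. Nothing in the labels ties the 3 arrays of each group to different pigs or different dishes. The p-values therefore rest on array-to-array spread that could be purely technical.

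Endothelial cells line arteries, keep blood from clotting, release nitric oxide and prostacyclin, and put out adhesion molecules and cytokines when they are stimulated by infection or injury. After the lining is lost, neighbouring endothelial cells spread and divide to cover the vessel wall, and the regrown lining of coronary arteries is known for impaired relaxation mediated by the endothelium. Extracellular matrix, which the cells both make and stand on, includes collagens, small proteoglycans and the matricellular proteins that tune how cells attach, while interferon signalling switches on a set of antiviral genes that most cell types share.

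All 6 arrays carried the endothelial label in their signals. PECAM1, an endothelial junction protein, read 8645, 7910.5 and 7126 on passage 1 arrays 1 to 3 and 7771, 5519.6 and 7651 on regenerated arrays 1 to 3, and CDH5, the cadherin of endothelial junctions, read 9096, 10855 and 9230.1 in passage 1 against 10763, 8562 and 11246 in regenerated cells. Both ranges overlapped. VWF, the clotting glycoprotein stored by endothelial cells, read 8.9, 8.82 and 89.8 in passage 1 against 60.2, 15.7 and 50.2 in regenerated cells, so the probe set was dim on every array. Another VWF probe set was dim too, at 28.8, 31.3 and 26.4 in passage 1 against 52.1, 39.5 and 44.2 in regenerated cells, without overlap. KDR, an endothelial growth factor receptor, did not pass the filter on dim probe sets. The defining leukocyte marker PTPRC did not pass it either. TAGLN, a smooth muscle actin-binding protein, read 10230.5, 10221 and 7707 in passage 1 against 11339.8, 6376 and 10296 in regenerated cells and was thus present throughout. In these pooled cells, fewer cells of a type and less RNA per cell cannot be told apart.

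The arrays also carried a technical division. Bacterial control transcripts spiked into the sample before labelling lost far more signal from the 3' to the 5' end on some arrays than on others: the log2 difference of the dap and thr probe sets was -1.99 on passage 1 array 1, -4.87 on array 2 and -4.25 on array 3, and -4.36, -4.66 and -5.19 on the regenerated arrays. Passage 1 arrays 2 and 3 therefore shared the labelling kind of the regenerated arrays, and array 1 did not. The pig's own ef1a transcript read -0.35 ± 0.49 (SD, n = 3) in passage 1 and -1.57 ± 0.66 (SD, n = 3) in regenerated arrays on the same measure, and gapdh 0.019 ± 0.077 and -0.42 ± 0.17. For these pig transcripts every regenerated array lay below every passage 1 array, including arrays 2 and 3, whereas actin overlapped. The part of transcript-end signal loss in the gene changes below was not tested beyond the comparison with passage 1 arrays 2 and 3.

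**Figure D1:**
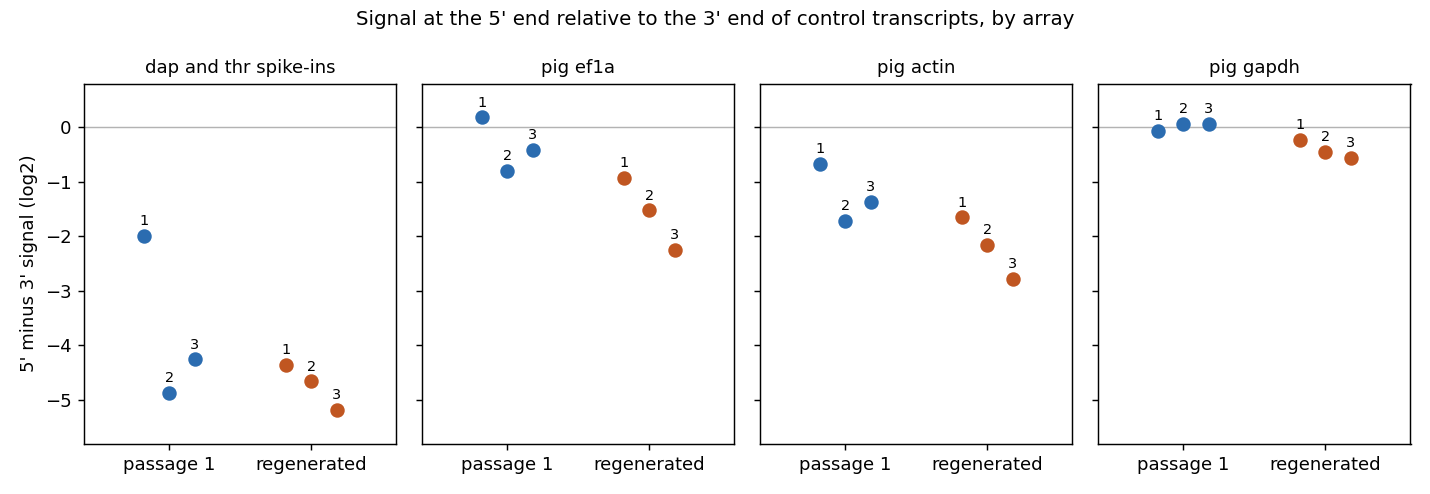
Log2 signal at the 5' end minus the 3' end for spiked-in and pig control transcripts on the 3 passage 1 and 3 regenerated arrays, 1 point an array, numbered by array. Passage 1 array 1 sits at -1.99 for the spike-ins with the other 5 arrays at -4.25 or below, and the regenerated arrays lie below all passage 1 arrays for ef1a and gapdh.

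Regenerated cells had higher signals for matrix genes, for the transporter SLC1A1, the TGF-beta feedback gene PMEPA1 and the kinase MAP2K6, and lower signals for interferon-response, cytokine and some complement genes. Of 15299 probe sets tested, 840 (5.49%) changed between regenerated and passage 1 cells in limma's moderated test at a Benjamini-Hochberg adjusted p under 0.05, 456 upward (2.98%) and 384 downward (2.51%). The change was at least 2-fold on log2(signal + 16) for 360 of the rises and 278 of the falls, and at least 8-fold for 22 and 14. Over all tested probe sets the median log2 change was -0.0056. Groups of 3 did not overlap for 3522 tested probe sets (23.0%), and this held for 455 of the 456 rises and 382 of the 384 falls. Below, single-gene changes are log2 changes ± standard error with 3 arrays a group, signals are listed in array order, and a value given for a left-out array is the adjusted p without it. The count of 840 depended on single arrays: it was 513 without passage 1 array 3, 291 without regenerated array 2 and 345 without regenerated array 3, and it was 1238 without regenerated array 1.

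Against passage 1 arrays 2 and 3 alone, with the labelling kind as a block in the same fit, 926 probe sets (6.05%) changed, 535 upward (3.5%) and 391 downward (2.56%). These controls are part of the 3 used above, so the sign was fixed beforehand for the 455 rises and 382 falls without overlap. All 456 rises and 384 falls kept it, and 360 and 272 of them again passed the threshold. Their median log2 change was 1.30 with all controls and 1.33 against the controls of the same kind for the rises, and -1.34 and -1.28 for the falls. Restricting the fit itself to the 5 arrays of that kind left 501 calls, among them 250 of the rises and 153 of the falls.

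**Figure D2:**
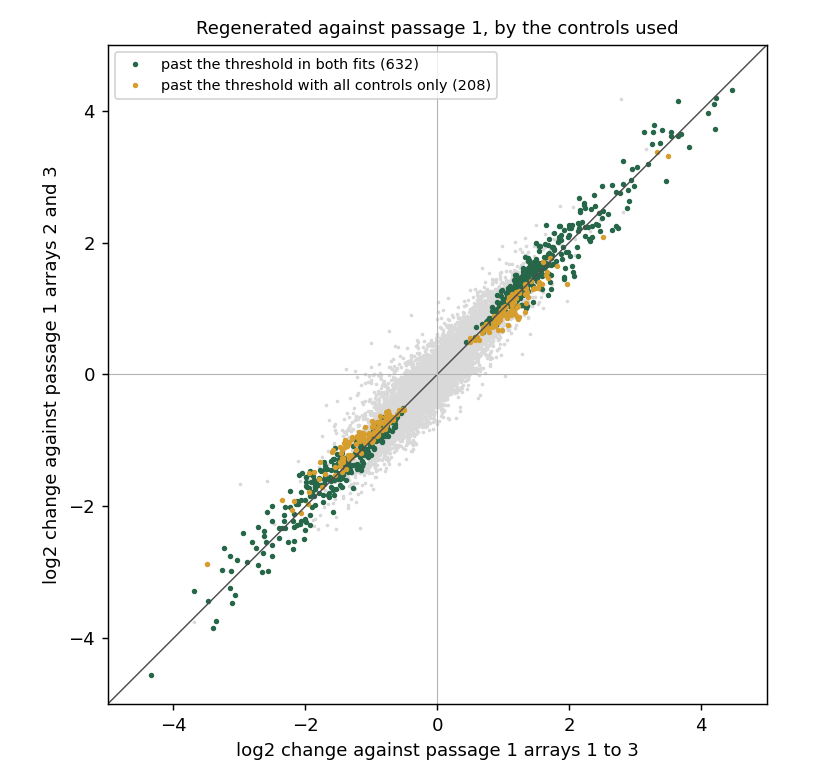
Log2 change of each tested probe set against passage 1 arrays 1 to 3 (horizontal) and against passage 1 arrays 2 and 3 (vertical), with the line of equality; coloured points passed the threshold with all controls. Of the 840 coloured points, 632 passed in both fits and 208 with all controls only. All lie in the quadrants of equal sign, which the lack of overlap between groups fixed beforehand for 455 rises and 382 falls.

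Matrix genes rose. Of 23 tested genes for proteoglycans and matricellular proteins, 11 rose and 1 fell, with a median log2 change of 0.62, against 2.98% and 2.51% of all tested probe sets and their median of -0.0056. ASPN, encoding asporin, a small leucine-rich proteoglycan, read 258, 88.9 and 75.1 on the passage 1 arrays and 1566, 2199 and 1479 on the regenerated arrays. MGP, a matrix protein that inhibits calcification, read 389.7, 388 and 3676 in passage 1 against 10688, 10642 and 7188 in regenerated cells. Both genes were higher on every regenerated array, and passage 1 array 3 stood well above the other controls for MGP. The log2 change was 3.66 ± 0.49 (adjusted p = 0.00232) for ASPN and 3.47 ± 0.71 (adjusted p = 0.0178) for MGP, and 4.15 and 2.94 against passage 1 arrays 2 and 3. The MGP call was lost without passage 1 array 2 (adjusted p = 0.0555), regenerated array 2 (0.0788) or regenerated array 3 (0.0509).

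LUM, the collagen-binding proteoglycan lumican, read 5.8, 17.9 and 14.1 in passage 1 and 659.9, 30.1 and 1014 in regenerated cells. Regenerated array 2 lay close to the controls while the other regenerated arrays were far above them. Its log2 change of 3.50 ± 0.87 (adjusted p = 0.0396) did not pass the threshold against passage 1 arrays 2 and 3 (adjusted p = 0.0742) or without passage 1 array 1, 2 or 3 or regenerated array 1 or 3 (0.0732 to 0.142). THBS2, thrombospondin 2, read 26.8, 55.9 and 69.99 in passage 1 against 437, 354 and 254 in regenerated cells, and SDC2, a cell-surface heparan sulphate proteoglycan, read 2403, 931 and 686 in passage 1 against 4193, 5544 and 5992 in regenerated cells. Neither pair of groups overlapped. The log2 changes were 2.47 ± 0.31 (adjusted p = 0.00196) and 2.15 ± 0.41 (adjusted p = 0.0128), and that of SDC2 lost its call without regenerated array 2 or 3 (0.0565 to 0.0611).

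Smaller rises in the same list were those of THBS3 (1.21), PRELP (1.37), BGN (1.37), the lysyl oxidases LOXL4 (0.97) and LOXL1 (0.95), which cross-link collagen, and SPARC (0.44), a collagen-binding matricellular protein. Of these, THBS3 kept its call without each array in turn. All of the others lost it without regenerated array 3. PRELP also lost it without passage 1 array 2 or 3, BGN without passage 1 array 1 or 2 or regenerated array 1, and LOXL4 without passage 1 array 1 or 3 or regenerated array 2. LOXL1 also lost it without passage 1 array 3 or regenerated array 2, and SPARC without any array but passage 1 array 1. The highest adjusted p among these losses were 0.109, 0.16, 0.142, 0.0933 and 0.134 in that order of genes. VCAN, the large proteoglycan versican, fell (-1.57, adjusted p = 0.0285), a call lost without passage 1 array 2 or 3 or regenerated array 2 or 3 (0.0668 to 0.109). Its signals were low outside passage 1, so it passed the filter through that group. The number of rises in the list was 8 against passage 1 arrays 2 and 3, 6 without passage 1 array 2, passage 1 array 3 or regenerated array 2, and 3 without regenerated array 3. POSTN, periostin, read 1103, 729 and 685 in passage 1 against 13.1, 1500.0 and 60.2 in regenerated cells. Its regenerated arrays differed more from each other than from the controls.

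Among 18 tested collagens, laminins and other basement membrane genes, 4 rose and the median was 0.32. COL5A1, a collagen that regulates fibril diameter, read 3535, 3689.8 and 2989.9 in passage 1 against 6730.4, 7503 and 6682 in regenerated cells, and COL8A1, a short-chain collagen of vessel walls, read 4249, 4580.3 and 3817 in passage 1 against 8513, 5998 and 6644 in regenerated cells. Every regenerated array exceeded every passage 1 array for both. Their log2 changes were 1.03 ± 0.21 (adjusted p = 0.0173) and 0.73 ± 0.16 (adjusted p = 0.0262). EFEMP2, an elastic fibre assembly protein, changed by 1.58 and LAMB1, a laminin chain, by 0.50. LAMB1 lost its call without any 1 of the 6 arrays (0.0528 to 0.138), COL5A1 without passage 1 array 3 or regenerated array 2 or 3 (0.0526 to 0.0744), COL8A1 without passage 1 array 3 or regenerated array 1 or 3 (0.0527 to 0.0848) and EFEMP2 without regenerated array 2 (0.0575). Of the 4, COL8A1 alone kept its call without regenerated array 2, EFEMP2 alone without passage 1 array 3 or regenerated array 3, and COL5A1 and EFEMP2 without regenerated array 1. The list as a whole held 2 rises without passage 1 array 3, since FBLN1, a fibulin of elastic fibres, then passed. Another COL5A1 probe set rose by 0.93 (adjusted p = 0.0438), a call lost without any array but passage 1 array 2 (0.081 to 0.14), and 2 dim ones lay near 0, at 0.044 and -0.077. A dimmer LAMB1 probe set changed by -1.14 (adjusted p = 0.148).

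The receptors that hold cells to matrix changed in both directions. ITGB5, an integrin beta chain, read 1838, 2155 and 1521 in passage 1 against 5687, 4591 and 5360.0 in regenerated cells, and its partner ITGAV read 2782, 2630.5 and 2133 in passage 1 against 4809, 6273 and 5372 in regenerated cells. Both were higher on all regenerated arrays, by 2.84-fold (adjusted p = 0.000856) and 2.17-fold (adjusted p = 0.00298). ITGB3, the alternative beta chain for ITGAV, read 622, 370.04 and 294 in passage 1 against 100.03, 64.2 and 114 in regenerated cells and was lower on all of them (-1.99 ± 0.38, adjusted p = 0.0128; 0.0643 without regenerated array 2). Of the 12 tested integrin and focal adhesion genes, these 2 rose and 1 fell. In the list of matrix proteases and inhibitors, 1 of 19 rose and 2 fell, and 3 rose without passage 1 array 2. The rise was that of TIMP2, an inhibitor of matrix metalloproteinases, which read 1883, 2183 and 3523 in passage 1 against 5574, 6755 and 9967 in regenerated cells (1.56 ± 0.26, adjusted p = 0.00652) and whose other probe set changed by 2.59. MMP7, a metalloproteinase, overlapped between groups (1.61, adjusted p = 0.188).

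Most fibroblast markers were higher beside these matrix genes. The summed signal of 16 fibroblast markers ran from 2517 to 4526 on the passage 1 arrays and from 5440.3 to 6857 on the regenerated arrays. Of the 10 tested, 3 rose: LUM, which also counts in the matrix list, FAP, a serine protease of activated fibroblasts, and THY1, a cell-surface glycoprotein. FAP read 37.5, 13.5 and 18.4 in passage 1 against 267, 484 and 315 in regenerated cells, and THY1 read 42.6, 89.7 and 31.4 in passage 1 against 336, 558 and 573 in regenerated cells. Neither overlapped (3.25 ± 0.45, adjusted p = 0.00241; 2.89 ± 0.42, adjusted p = 0.00327). FAP was also dim in passage 4 (33.3, 38.0 and 0.69). It therefore probably passed the filter through the regenerated arrays, in which case it had to differ. The fibrillar collagen marker COL1A2 read 169, 191 and 122 in passage 1 against 192, 156 and 159 in regenerated cells and overlapped, DCN changed by 0.23 and CDH11 by -0.88, and COL3A1, DPT and TCF21 did not pass the filter. POSTN, also in this list, had its lowest change, -2.48, with widely spread regenerated arrays and no call. Of the 10 tested, 8 had a higher mean and 2, CDH11 and POSTN, a lower one. The list's median log2 change was 0.74, and 0.51 against passage 1 arrays 2 and 3. Smooth muscle markers summed to 20719 to 42538 in passage 1 and 36748 to 52044 in regenerated arrays, and 1 of 12 tested, SMTN, rose (0.89, adjusted p = 0.0422), a call lost without any 1 of the 6 arrays (0.0564 to 0.152). CALD1, also of this list, rose by 1.49 (adjusted p = 0.00436) on a dimmer probe set and changed by 0.36 on its brightest. The part of other cell types in the matrix changes was not tested.

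ACTA2, smooth muscle actin, varied widely among the controls. It read 13189, 2519 and 196 on the passage 1 arrays and 10021, 12254 and 18924 on the regenerated arrays. Passage 1 array 1 lay inside the regenerated range and passage 1 array 3 far below it. The log2 change was 2.79 ± 1.29 (adjusted p = 0.232) with all controls and 4.18 (adjusted p = 0.0582) against arrays 2 and 3, neither past the threshold.

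The 3 largest rises of named genes lay outside the matrix. SLC1A1, a glutamate and cysteine transporter, read 52.8, 111 and 55.3 in passage 1 and 2104, 1838 and 1726 in regenerated cells. PMEPA1, a membrane protein that restrains TGF-beta signalling and is induced by it, read 98.4, 224 and 396 in passage 1 against 4584, 4239 and 3587 in regenerated cells. MAP2K6, a kinase that activates p38, read 28.1, 52.3 and 26.2 in passage 1 against 1575, 1167 and 396 in regenerated cells. All 3 were separated from the controls by a wide gap, and all kept their calls in each of the 17 alternative analyses. The log2 changes were 4.47 ± 0.41 (adjusted p = 0.000319), 4.20 ± 0.39 (adjusted p = 0.000319) and 4.19 ± 0.44 (adjusted p = 0.00068), and 4.32, 3.72 and 4.10 against passage 1 arrays 2 and 3. Both other PMEPA1 probe sets also rose, by 3.82 and 2.34 (the latter lost without passage 1 array 2 or regenerated array 2, 0.0505 and 0.0519), and the other SLC1A1 probe set by 1.35, the latter lost without any 1 of the 6 arrays (0.0588 to 0.0852).

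Of 26 tested genes of the TGF-beta and BMP pathway, PMEPA1 and ENG rose, and the median log2 change was 0.073. ENG, endoglin, an endothelial co-receptor for TGF-beta and BMP ligands, read 552, 1998 and 1147 in passage 1 against 6169, 3168 and 3634 in regenerated cells. The regenerated arrays were all higher, with passage 1 array 1 lowest (1.92 ± 0.38, adjusted p = 0.0153; 1.44 against arrays 2 and 3). The ligands TGFB1 (0.43) and TGFB3 (0.92), the receptor TGFBR1 (0.51), the transducer SMAD3 (-0.61) and the target genes ID1 (0.015) and ID3 (0.31) did not pass the threshold. For TGFB2 the brightest probe set changed by 0.49 (adjusted p = 0.506), while dimmer ones rose by 1.63 and 1.07 and the dimmest changed by -0.21. The first of these was lost without regenerated array 2 (0.0573) and the second without any array but passage 1 array 1 (0.052 to 0.168). Dimmer probe sets of TGIF1 and BAMBI, of the same list, fell by -1.57 (adjusted p = 0.00368) and -1.14 (adjusted p = 0.0443). Their brightest changed by -0.52 and -0.71 without a call. In the MAPK cascade, 2 of 24 genes rose, MAP2K6 and GADD45A, a stress sensor, which read 3129, 1923 and 2504 in passage 1 against 5513, 6276 and 5146 in regenerated cells (1.18 ± 0.19, adjusted p = 0.00531). MAPK14, the p38 kinase itself, changed by -0.055 (adjusted p = 0.902).

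Peptide, enzyme and vesicle genes completed the 15 largest rises. SST, the hormone somatostatin, read 1091, 1618 and 3217 in passage 1 against 10472, 13931 and 15709.6 in regenerated cells. ENO3, a muscle form of the glycolytic enzyme enolase, read 544, 1148 and 456 in passage 1 against 5266, 5086 and 5689.8 in regenerated cells, and MLPH, an adaptor of vesicle transport, read 88.3, 34.3 and 93.3 in passage 1 against 576, 719 and 586 in regenerated cells. None of these overlapped, and the log2 changes were 2.87, 2.99 and 2.94 (adjusted p = 0.00232, 0.00213 and 0.000774). TMEM117 rose by 4.10 with 1 regenerated array far above the other two, and RFLNA by 2.81, a call lost without regenerated array 2 (adjusted p = 0.0522). CLDN11, a tight junction protein, rose by 3.32 from 11, 14.5 and 3.17 in passage 1 to 241, 449 and 117, a call lost without any 1 of the 6 arrays (0.0567 to 0.151). FNTA, a subunit of prenyl transferases, rose by 3.37 on 1 probe set, whereas its brightest fell by -0.61, lost without passage 1 array 2 or 3 or regenerated array 2 or 3 (0.0741 to 0.139). The FNTA probe set that rose was dim in passage 1 (40.1, 18.6 and 35.8) and passage 4 (52.6, 17.5 and 25.3). It too probably passed the filter through the regenerated arrays, in which case it had to differ. NPPB, a natriuretic peptide, read 39.7, 57.6 and 56.9 in passage 1 against 173, 423 and 631 in regenerated cells and rose 5.64-fold (adjusted p = 0.0047). It was the only called gene among 4 tested heart and skeletal muscle markers, whose summed signal ran from 239 to 284 in passage 1 and from 462 to 935 in regenerated arrays.

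**Figure D3:**
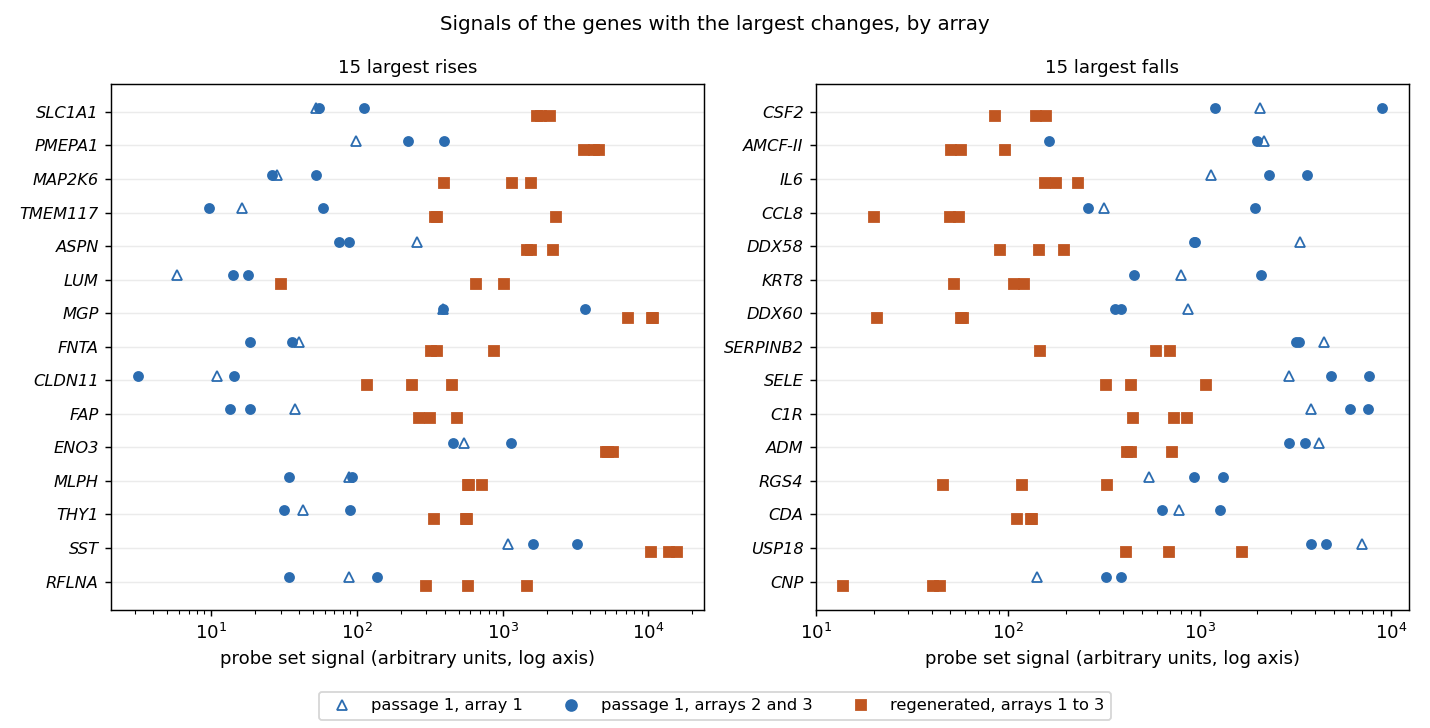
Signal of each of the 15 largest rises and 15 largest falls (1 probe set a gene, log axis) on passage 1 array 1 (open triangles), passage 1 arrays 2 and 3 (circles) and the 3 regenerated arrays (squares). The groups are separate for every gene shown, as the choice of genes required, and the gap is widest for SLC1A1 among the rises, with passage 1 signals of 52.8 to 111 and regenerated signals of 1726 to 2104.

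Interferon-response genes were lower in regenerated cells. All 30 tested members had a lower mean, 19 fell past the threshold, and the median log2 change was -1.48, against 2.51% of tested probe sets that fell and a median of -0.0056. DDX60, an antiviral helicase, read 873, 389.7 and 361 in passage 1 and 57.9, 56.9 and 20.8 in regenerated cells. USP18, which removes the ubiquitin-like ISG15 from proteins, read 7003, 4537 and 3809.9 in passage 1 against 1672, 692 and 415 in regenerated cells. IRF7, the transcription factor that amplifies interferon production, read 1049, 883 and 1732 in passage 1 against 291, 177 and 136 in regenerated cells. The groups were separate for all 3, with log2 changes of -3.14 ± 0.38 (adjusted p = 0.00162), -2.63 ± 0.42 (adjusted p = 0.00528) and -2.51 ± 0.31 (adjusted p = 0.00177).

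The sensor DDX58 fell by -2.33 on its brightest probe set and -3.23 on another, XAF1 by -2.50, IFIT1 by -2.14, ISG20 by -2.01, MX2 by -1.94, PARP9 by -1.85, PARP12 by -1.61, IFIT3 by -1.51, IRF1 by -1.44 and IFI35 by -1.39 on the log2 scale. These changes kept their calls without each array in turn. RSAD2 (-2.12), DTX3L (-1.57), GBP2 (-1.45) and the GTPase MX1 (-1.72) lost theirs without regenerated array 2 (adjusted p = 0.0538 for MX1), all but MX1 also without regenerated array 3, and GBP2 also without passage 1 array 3, with adjusted p up to 0.0951. ISG15 (-1.38) and IFI44L (-1.23) lost theirs against passage 1 arrays 2 and 3 and when single arrays were left out, ISG15 for any array but regenerated array 1 (up to 0.126) and IFI44L for passage 1 array 1 or 2 or regenerated array 2 or 3 (up to 0.109). A dimmer IFI44L probe set fell by -2.30, a call lost without regenerated array 2 (0.0516).

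OAS1, an antiviral synthetase, read 5619, 5635 and 7308 in passage 1 and 4519, 596 and 23.1 in regenerated cells. Regenerated array 1 lay near the controls and array 3 far below them, and the log2 change of -3.69 ± 1.41 did not pass the threshold (adjusted p = 0.15). Of the 19 called members, regenerated array 1 was the highest of the regenerated arrays for 18 and array 3 the lowest for 17. STAT2 (-0.50) and IRF9 (-0.41), which carry the interferon signal to the nucleus, did not pass the threshold. Against passage 1 arrays 2 and 3 the median was -1.40 with 17 falls. The number of falls ran from 14 to 20 when 1 array was left out.

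**Figure D4:**
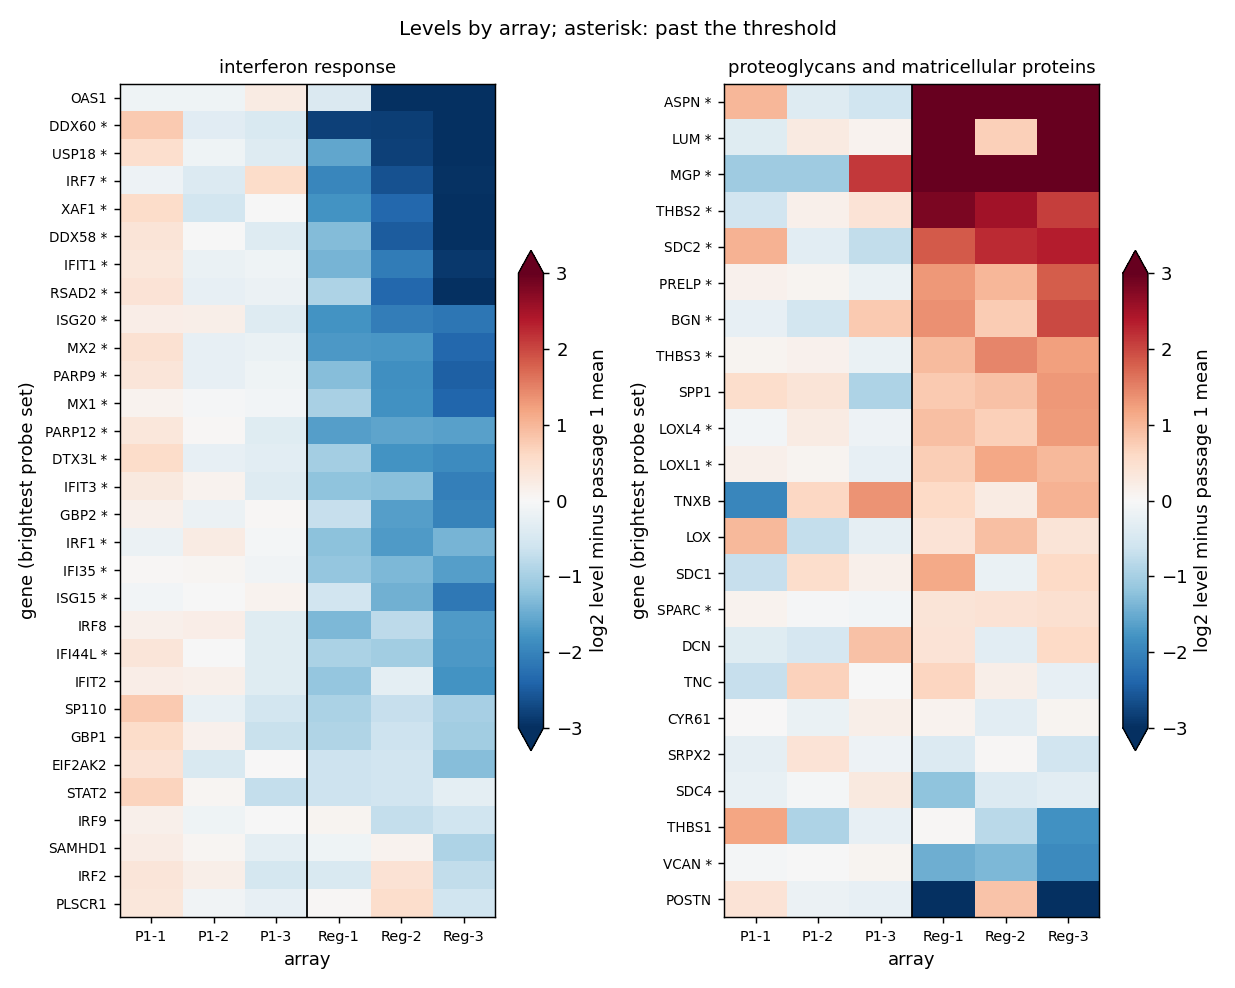
Log2 level of each tested interferon-response gene (left) and each tested proteoglycan or matricellular gene (right) on each array, minus the mean of the 3 passage 1 arrays; rows are ordered by the change and an asterisk marks genes past the threshold. Colours end at 3 log2 units. The 19 called interferon genes are blue on every regenerated array, and the 11 called matrix rises are red on them, with LUM paler on regenerated array 2 than on the other regenerated arrays.

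Antigen presentation genes fell in part. Of 13 tested genes for antigen processing and the immunoproteasome, 5 fell, with a median of -0.94, and 3 did without regenerated array 2 or 3. PSME1, a subunit of the proteasome activator induced by interferon, read 6662, 5750.5 and 5065 in passage 1 against 2660.1, 2520.1 and 2511 in regenerated cells, and the immunoproteasome subunit PSMB10 read 1959.8, 1258 and 1327 in passage 1 against 594, 587 and 630.2 in regenerated cells. Both were lower on all regenerated arrays (-1.17 ± 0.14, adjusted p = 0.0015; -1.28 ± 0.21, adjusted p = 0.00658), as was PSME2 (-1.15). PSMB8 (-2.07) and the peptide-loading chaperone TAPBP (-1.52) lost their calls without regenerated array 2 or 3 (adjusted p = 0.0827 and 0.0710 for PSMB8, 0.0572 and 0.0560 for TAPBP), and PSMB8 also without passage 1 array 3 (0.0621). Of 14 tested MHC genes, 13 had a lower mean and 2 fell. The class I gene SLA-3 read 11092, 9177 and 11558 in passage 1 against 5741, 4539.6 and 3339 in regenerated cells (-1.25 ± 0.22, adjusted p = 0.00829), a drop on every regenerated array, though signals of closely similar MHC genes can mix on an array. CD74, the class II invariant chain, read 162, 177 and 692 in passage 1 against 58.4, 33.7 and 55.5 in regenerated cells (-2.17 ± 0.47, adjusted p = 0.0228), a call lost without regenerated array 2 (0.0966) or 3 (0.0659). Leukocyte markers, which could bring MHC transcripts, summed to 1967 to 2573 in passage 1 and 1492 to 2158 in regenerated arrays. In limma's test 0 of the 5 tested changed, and 0 had an unadjusted p under 0.05. FCGR3A read 241, 164 and 670 in passage 1, C1QA 26.9, 12.1 and 112, and C1QC 20.2, 20.7 and 448. These were highest on passage 1 array 3, as CD74 was. CD86 (1337, 1309 and 623), the largest part of the sum on every other array, and CORO1A (125, 177 and 97.1) were the lowest of the controls there. The part of leukocytes in the MHC changes was not tested.

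A cytokine gene had the largest fall of the named genes. CSF2, the growth factor for granulocytes and macrophages, read 2073, 8910.2 and 1204 in passage 1 and 85.5, 159 and 139 in regenerated cells. IL6, a cytokine of acute inflammation, read 1143, 3624 and 2297 in passage 1 against 177, 232 and 156 in regenerated cells. The groups were far apart for both, although passage 1 array 2 was several times above the other controls for CSF2. The log2 changes were -4.34 ± 0.70 (adjusted p = 0.00533) and -3.40 ± 0.37 (adjusted p = 0.000862), and -4.56 and -3.84 against passage 1 arrays 2 and 3. IL1A fell by -2.01 and its receptor IL1R1 by -0.98, but IL1A lost its call without regenerated array 2 (0.0838) or 3 (0.0828), and IL1R1 without any array but regenerated array 1 (0.0513 to 0.138). Of the 11 tested interleukin and colony-stimulating factor genes these 4 fell, and the median was -0.95. Without regenerated array 2 or 3, 2 fell.

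Genes under NF-kB, the transcription factor of inflammatory stimulation, followed in number: 9 of 22 fell (6 without regenerated array 2) and the median was -0.74. SELE, E-selectin, which captures leukocytes, read 2919, 7686 and 4848 in passage 1 against 1077, 441 and 323 in regenerated cells. NFKBIA, the inhibitor that NF-kB itself induces, read 5041, 4334 and 4289 in passage 1 against 1374, 1521 and 1475 in regenerated cells. Both were lower on every regenerated array (-3.11 ± 0.52, adjusted p = 0.00638; -1.63 ± 0.21, adjusted p = 0.00197). TNFAIP6, a secreted hyaluronan-binding protein, fell by -2.33, a call lost without regenerated array 2 (0.0542) or 3 (0.0611). The other leukocyte adhesion molecules were mixed. VCAM1 read 16151, 13258 and 13608 in passage 1 against 15017, 10738 and 15779 in regenerated cells and overlapped. ICAM1 read 3804, 5994 and 4059.6 in passage 1 against 3325, 2747 and 2633 in regenerated cells without overlap but missed the threshold (-0.65, adjusted p = 0.0677), which it passed against passage 1 arrays 2 and 3 (adjusted p = 0.0468). ALCAM (1.24) and CD55 (1.96) rose, each a call lost without passage 1 array 3 or regenerated array 2 or 3, and without passage 1 array 2 for ALCAM and array 1 for CD55 (0.0511 to 0.141).

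Among 11 tested chemokines and receptors, 4 fell, and 2 did without regenerated array 3. CXCL2, a neutrophil attractant, read 9695, 10545 and 8834 in passage 1 against 5377, 4221 and 3860.3 in regenerated cells, lower on all regenerated arrays (-1.12 ± 0.15, adjusted p = 0.00241). CCL8, a monocyte attractant, read 317, 1938 and 261 in passage 1 against 55.2, 49.9 and 20.1 in regenerated cells (-3.35 ± 0.62, adjusted p = 0.0112; 0.0520 without regenerated array 3). CXCL8, the neutrophil attractant interleukin 8, read 7827, 6921 and 6998 in passage 1 against 7308, 6689.6 and 8599 in regenerated cells and overlapped. CCL4 fell by -1.35 (0.0633 without regenerated array 3), and CCL2, the main monocyte attractant, by -0.55, a call lost without any passage 1 array or regenerated array 2 (0.0659 to 0.0845). AMCF-II, a porcine neutrophil chemotactic factor of the same list, fell by -3.49 on a dimmer probe set but changed by -0.14 on its brightest, which the list counts. That fall was lost without passage 1 array 1 or 2 or regenerated array 2 or 3 (0.0510 to 0.0928).

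Complement genes changed in both directions. C1R, a protease of the first complex of the classical pathway, read 3829, 6109.9 and 7584 in passage 1 against 735, 855 and 446 in regenerated cells, and its partner C1S read 6460.0, 6570.1 and 6788 in passage 1 against 1359, 1907 and 879.9 in regenerated cells. The regenerated arrays were far below the controls for both, by -3.07 ± 0.45 (adjusted p = 0.00353) and -2.31 ± 0.49 (adjusted p = 0.0207). SERPING1, the inhibitor of that complex, fell by -1.35 (adjusted p = 0.0164). C1QA and C1QC, chains of its recognition subunit, were dim on most arrays and overlapped between groups (0.26 and -0.37, adjusted p = 0.821 and 0.832). CFD, a protease of the alternative pathway that also marks adipocytes, read 586, 1102 and 552 in passage 1 against 120.2, 136 and 183 in regenerated cells (-2.18 ± 0.29, adjusted p = 0.00232). CLU, clusterin, rose by 1.24, but not past the threshold against passage 1 arrays 2 and 3. Of the 14 tested genes of the list, 4 fell and 2 rose, CLU and CD55. The falls numbered 2 without passage 1 array 2, where C1S (0.0518) and SERPING1 (0.0544) missed the threshold, and C1S also missed it without passage 1 array 3 (0.0605) or regenerated array 3 (0.0877), SERPING1 also without regenerated array 2 (0.0759), and CLU without any array but passage 1 array 3 (0.0583 to 0.139).

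**Figure D5:**
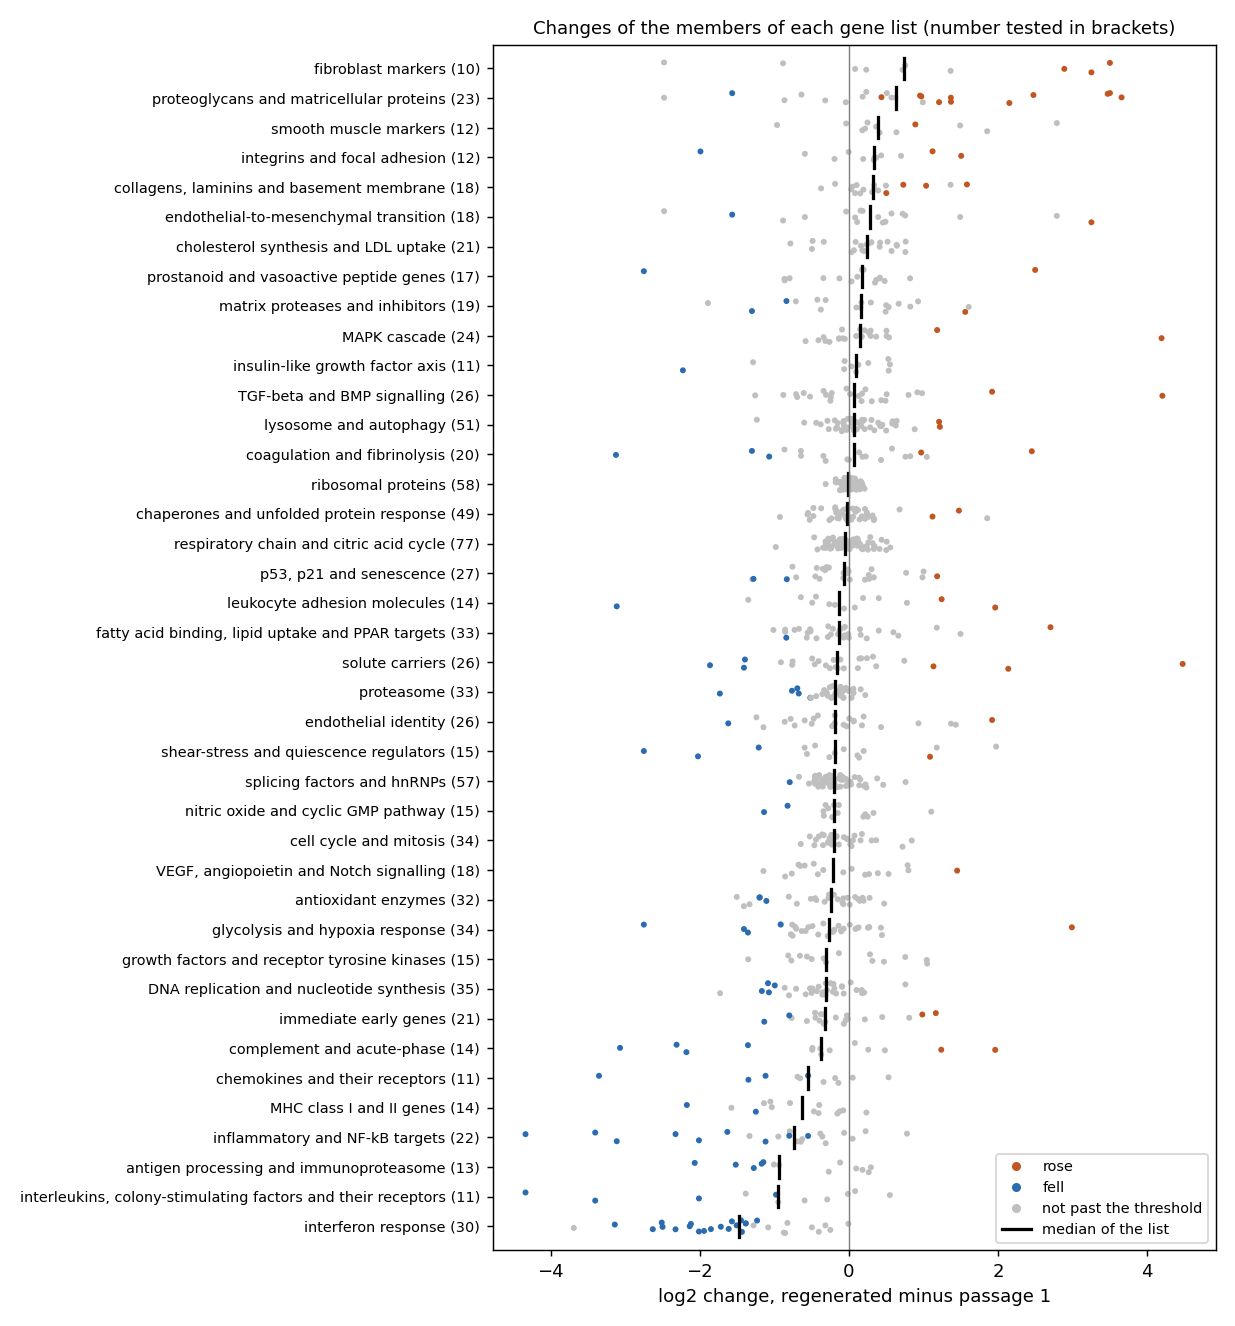
Log2 change (regenerated minus passage 1) of each tested member of the gene lists with 10 or more tested members, on its brightest probe set; the bar is the list's median and colours mark members past the threshold. The interferon list has the lowest median, -1.48, and the fibroblast and matricellular lists the highest, 0.74 and 0.62, while the ribosomal protein list stays within a narrow band around 0.

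Of 26 tested endothelial identity genes, ENG rose and CLDN5 fell, and 11 had an unadjusted p under 0.05 in limma's test, 7 lower and 4 higher. A lower mean was seen for 16 and a higher one for 10, with a median log2 change of -0.19. All regenerated arrays lay below all passage 1 arrays for 8 genes and above them for 3, against 10.8% and 12.3% of all tested probe sets. The falls numbered 3 without regenerated array 1, 2 without regenerated array 3 and 0 without regenerated array 2, and the rises 2 without passage 1 array 3. CLDN5, the claudin of endothelial tight junctions, read 643, 731 and 512 in passage 1 against 208, 158 and 214 in regenerated cells, lower on all regenerated arrays (-1.62 ± 0.31, adjusted p = 0.0134; 0.0660 without regenerated array 2). NOS3, endothelial nitric oxide synthase, read 1175, 1857 and 1803 in passage 1 against 1749, 1095 and 1274 in regenerated cells. Its groups overlapped (-0.23 ± 0.25, adjusted p = 0.635). In the nitric oxide and cyclic GMP list, 2 of 15 fell: ARG2, an arginase that competes for arginine (-1.14, adjusted p = 0.0194), and CAV2, a caveolar coat protein, which read 6379.6, 6206 and 6373 in passage 1 against 3775, 2924 and 4099 in regenerated cells (-0.82 ± 0.16, adjusted p = 0.0156). Both lost their calls without regenerated array 2 (0.0827 and 0.0584), and ARG2 also without passage 1 array 3 (0.0623) or regenerated array 3 (0.0520).

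Probe sets disagreed for several genes of this pathway. CAV1, the main caveolar protein, changed by -0.28 on its brightest probe set (adjusted p = 0.511) but fell by -2.19 (adjusted p = 0.00022) and -0.85 on others, the smaller fall lost without passage 1 array 3 or regenerated array 2 (0.0612 and 0.0712). GUCY1B3, a subunit of the nitric oxide receptor, changed by -0.34 on the brightest and fell by -1.72 and -1.70 on others, both lost without regenerated array 2 (0.0563 and 0.0887). PECAM1 fell by -1.14 on a dimmer probe set, a call lost without passage 1 array 1 or regenerated array 2 or 3 (0.0542 to 0.103), and changed by -0.19 on the brightest. Over the 1603 genes with more than 1 tested probe set, the 2177 dimmer probe sets had a median log2 change of -0.18 and the brightest -0.027. Of the dimmer ones 1.47% rose and 3.54% fell. How this relates to transcript-end signal was not tested.

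Vasoactive and flow-responsive genes changed singly. ADM, adrenomedullin, a vasodilator peptide, read 4199, 3540.3 and 2929.7 in passage 1 against 437, 418 and 720.3 in regenerated cells. All regenerated arrays were far lower, and the log2 change of -2.75 ± 0.24 (adjusted p = 0.00022) was -2.62 against passage 1 arrays 2 and 3. With NPPB it made 1 fall and 1 rise among 17 prostanoid and vasoactive peptide genes. PTGES3, of this list, fell by -1.71 (adjusted p = 0.00533) on a dimmer probe set and changed by -0.34 on its brightest. PTGS1, a cyclooxygenase, overlapped (0.37), PTGS2, the inducible form, missed the threshold (-0.80, adjusted p = 0.127), and EDN1, endothelin 1, changed by 0.20. In the list of shear-stress and quiescence regulators, FOXO1, a transcription factor of quiescence, read 638, 918 and 919 in passage 1 against 2029, 1670.4 and 1570.5 in regenerated cells and rose (1.09 ± 0.21, adjusted p = 0.0139; 0.0519 without regenerated array 2). TXNIP, an inhibitor of thioredoxin, read 1014, 2359 and 3095 in passage 1 against 392, 550.5 and 472 in regenerated cells and fell (-2.02 ± 0.39, adjusted p = 0.0135; 0.0517 without regenerated array 3). ITPR3, a calcium release channel, fell by -1.21.

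Coagulation genes moved in both directions, 2 up and 3 down of 20, with 4 up without passage 1 array 2. F2R, the thrombin receptor, read 399.6, 449 and 352 in passage 1 against 2466, 3471 and 1330.1 in regenerated cells, higher on every regenerated array (2.45 ± 0.33, adjusted p = 0.00232). PROS1, the anticoagulant protein S, read 2873, 2050.4 and 2570.0 in passage 1 against 4373, 5139 and 5092 in regenerated cells and also rose (0.97 ± 0.15, adjusted p = 0.00521). SERPINB2, an inhibitor of plasminogen activators, read 4426, 3194 and 3291 in passage 1 against 594, 701 and 147 in regenerated cells, a fall of -3.12 ± 0.43 (adjusted p = 0.00255). PLAU, the urokinase it inhibits, fell by -1.30 (adjusted p = 0.0133; 0.0604 without regenerated array 2) and SERPINB1 by -1.07. F3, tissue factor, read 942, 994 and 635 in passage 1 against 454, 1366 and 490.5 in regenerated cells and overlapped. THBD, thrombomodulin, did too (0.14).

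FABP4, the fatty acid binding protein of adipocytes and capillary endothelium, read 20.6, 18.1 and 14.7 in passage 1 and 202, 154 and 269 in regenerated cells. The regenerated arrays were all far higher, and the log2 change was 2.70 ± 0.28 (adjusted p = 0.00068), 2.76 against passage 1 arrays 2 and 3. FABP4 was dim on all passage 1 and passage 4 arrays, so it passed the filter through the regenerated arrays and had to differ. Of 33 tested genes of lipid handling 1 more changed, ACSL5, which fell by -0.84 on its brightest probe set (lost without passage 1 array 2 or 3 or regenerated array 2 or 3, 0.0743 to 0.142). Another ACSL5 probe set fell by -1.93 (adjusted p = 0.00835) and kept its call without each array, and the last changed by -0.62. ANGPTL4, of the same list, fell by -1.34 (adjusted p = 0.00908) on a dimmer probe set and changed by -0.86 on its brightest. FABP5 changed by -1.01 and PPARG by 1.18 without passing the threshold. Adipocyte markers summed to 956 to 1473 in passage 1 and 722 to 1170 in regenerated arrays, and CFD made up most of the passage 1 sums. Without CFD the sums were 372 to 404 and 586 to 1029, without overlap. Of the 6 tested adipocyte markers FABP4 rose and CFD fell, 4 had a higher mean, and the median log2 change was 0.76. The defining marker ADIPOQ did not pass the filter. Among 21 cholesterol synthesis and LDL uptake genes, limma called 0 and 7 had an unadjusted p under 0.05, with 17 of 21 higher in regenerated cells and a median of 0.24. It called 1 rise without passage 1 array 1 and 2 without regenerated array 1. ACAT2 fell by -1.40 (adjusted p = 0.0379) on a dimmer probe set and changed by -0.49 on its brightest.

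Among proliferation genes, limma called 0 of 34 of the cell cycle and mitosis list and 2 had an unadjusted p under 0.05, with a median of -0.20. Without regenerated array 1, 1 fell. TOP2A, a topoisomerase of dividing cells, read 776, 800.4 and 888 in passage 1 against 830.1, 707 and 521 in regenerated cells and overlapped. CDKN1A, the cell cycle inhibitor p21, read 3832, 6105 and 4942 in passage 1 against 5498, 5513 and 7642 in regenerated cells and overlapped too (0.33, adjusted p = 0.326). Of 35 DNA replication and nucleotide synthesis genes, 4 fell, led by PRIM2, a primase subunit (-1.17, adjusted p = 0.0283). That count was 5 without regenerated array 1, 2 without passage 1 array 1 or 2, 1 without passage 1 array 3 or regenerated array 2, and 0 without regenerated array 3. MYC, a growth-promoting transcription factor, fell by -1.14 (adjusted p = 0.0347), a call lost without passage 1 array 3 or regenerated array 2 or 3 (0.0601 to 0.125).

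Lists of metabolic and housekeeping genes held few calls. For 58 ribosomal protein genes the median log2 change was -0.016 and limma called 0, with 0 at an unadjusted p under 0.05. On a dimmer probe set of RPS27 limma called a fall of -0.97 (adjusted p = 0.0362). Of 77 respiratory chain and citric acid cycle genes it called 0, with 7 at an unadjusted p under 0.05 and a median of -0.054, and without regenerated array 1 it called 1 in each direction. Glycolysis and hypoxia genes gave 1 rise (ENO3) and 4 falls of 34, the falls including ADM and SLC2A3, a glucose transporter that read 5660.2, 5374 and 4855 in passage 1 against 1331, 2079 and 2807 in regenerated cells (-1.41 ± 0.25, adjusted p = 0.00955). The 4 falls were 6 without regenerated array 1 and 2 without passage 1 array 3 or regenerated array 2 or 3. Of 33 proteasome genes 5 fell (2 without regenerated array 2 or 3, and 3 without passage 1 array 2 or 3), led by PSMF1, a proteasome inhibitor that read 987, 1142 and 1319 in passage 1 against 601, 244 and 248 in regenerated cells (-1.73 ± 0.30, adjusted p = 0.00812). Of 32 antioxidant genes 3 fell, but 1 did against passage 1 arrays 2 and 3 and 0 without regenerated array 2. SOD2, the mitochondrial superoxide dismutase, read 7807, 4849 and 3953 in passage 1 against 2090.5, 1844 and 2392 in regenerated cells, separate groups that missed the threshold (-1.33, adjusted p = 0.0579).

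Epithelial and other single genes ended the list of large falls. KRT8, a keratin of simple epithelia, read 801, 2080.0 and 452 in passage 1 against 107, 52.4 and 122 in regenerated cells (-3.14 ± 0.54, adjusted p = 0.00715), the 1 called gene of 5 tested mesothelial and epithelial markers. CDA, cytidine deaminase, read 779, 635 and 1282 in passage 1 against 131, 111 and 133 in regenerated cells, a fall of -2.64 ± 0.33 (adjusted p = 0.00196). Both were lower on every regenerated array. RGS4, a brake on G-protein signalling, fell by -2.66, a call lost without passage 1 array 2 or 3 or regenerated array 1 or 2 (0.0735 to 0.128), and CNP by -2.57. At the threshold itself, HILPDA, NOP56 and SEC23A lay just inside (adjusted p = 0.0496, 0.0498 and 0.0499) and PCYOX1, VRK3 and STOML2 just outside (0.0502, 0.0503 and 0.0513).

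A large share of the calls had no gene name. Of the 456 rises 178 probe sets carried exactly 1 gene symbol, for 170 genes, and of the 384 falls 257 did, for 237 genes. Among the 7628 tested probe sets without a single symbol, 3.64% rose and 1.67% fell, against 2.32% and 3.35% of the 7671 with one. The counts by gene list therefore describe the named share of the array alone.

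Regenerated cells were also set against passage 4 cells, which shared no labelling kind with them. In the same fit 1912 probe sets (12.5%) differed, 666 higher (4.35%) and 1246 lower (8.14%) in regenerated cells. With the labelling kind as a block 35 remained past the threshold, and without regenerated array 2 or 3 the count was 943 or 895. Median centring made the split 934 higher and 1025 lower. Both comparisons share the regenerated arrays.

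The passage 4 values separated the main genes. PMEPA1 read 269.9, 140.1 and 212 in passage 4 cells and MAP2K6 52.3, 36.6 and 66.6, close to passage 1 for both (4.25 and 3.78, adjusted p = 0.00035 and 0.000885). ASPN read 154, 38.8 and 33.9 and FABP4 2.39, 1.66 and 0.684, also far below regenerated cells (4.49 and 3.64, adjusted p = 0.000742 and 0.000164). SLC1A1, the largest rise, read 932, 254 and 783, above every passage 1 array and below every regenerated array (1.69, adjusted p = 0.0214). Its log2 difference between passage 4 and passage 1 was 2.79. SST read 19097, 8842 and 7639, near the regenerated level (0.28, adjusted p = 0.688). For the falls, IL6 read 174, 151 and 279.7 and CSF2 40.3, 309 and 114 in passage 4, levels that overlapped the regenerated arrays (-0.063 and 0.071, adjusted p = 0.934 and 0.961), whereas ADM read 2333, 3133 and 3379 and SERPINB2 7566, 6668 and 5655, above every regenerated array (-2.48 and -3.99, adjusted p = 0.000383 and 0.00069). In the interferon list 1 gene, PLSCR1, a membrane scramblase (1.21, adjusted p = 0.0459), was higher and 0 lower than in passage 4, and in the cell cycle list 0 were higher and 21 of 34 lower, with a median of -0.92. These counts use the brightest probe sets. The DDX58 probe set with the larger fall from passage 1 was also lower than in passage 4 (-1.48, adjusted p = 0.0459). Each passage 4 array was of the other labelling kind, and passage 1 array 1 alone links the kinds in the blocked fit.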

How the data were processed

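Signal intensities of 24123 probe sets on 9 arrays were used as deposited by the authors, on a linear scale and computed with MAS5, per the submitters' processing notes. No version or settings of MAS5 are named there. Every array had the same mean signal after trimming 2% at each end, so no further scaling was applied. After leaving out 124 AFFX control probe sets, 15299 of 23999 remained that lay above the 40th percentile of their own array on at least 3 arrays. A dim probe set that passed only through the group where it was bright had to differ between groups.

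Values were tested as log2(signal + 16) with limma 3.58.1 in R 4.3.3 (lmFit, eBayes with an intensity trend, 2-sided) in 1 fit of all 9 arrays with 1 coefficient a group, and adjusted over all tested probe sets by Benjamini-Hochberg. Fold changes are on the log2(signal + 16) scale, which understates changes of dim genes. "Rose" and "fell" mean an adjusted p under 0.05. The scripts were tested on simulated data. The number of arrays limits the precision.

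Gene names came from the platform annotation supplied with the data: 10069 probe sets had 1 symbol, 198 several and 13732 none, and 9961 matched an Entrez gene of RefSeq's pig table. A gene with several tested probe sets is given by its brightest in the lists. Over all named genes, 25 dimmer probe sets rose and 59 fell where the brightest did not have the same call. Named genes were the 15 largest rises and 15 largest falls that passed the test without overlap (largest probe set of a gene), up to 4 called members of each of 48 gene and marker lists, a fixed panel, and other list members. A further list is not reported here. Members, lists and tests were chosen with earlier results of these data known. Replicate numbers did not pair the samples. Alternatives were another pseudocount, filter, scaling, variance model, set of arrays or probe set rule, and each array left out.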

Additional observations from a re-analysis of the deposited data

Results flagged for a closer look

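Control probe sets outside the comparison differed between the groups. For ef1a, the mean log2 signal at the 5' end minus the 3' end was -1.57 on the regenerated arrays (-0.93, -1.52 and -2.25) and -0.35 on the passage 1 arrays (0.18, -0.80 and -0.42). For gapdh it was -0.42 on the regenerated arrays (-0.24, -0.45 and -0.56) and 0.019 on the passage 1 arrays (-0.070, 0.066 and 0.061). In both cases every regenerated array lay below every passage 1 array. The part of this difference in the gene changes was not tested. Groups of 3 arrays were too small for a check of outlying samples.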

How the results depend on the processing

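Of 810 list medians (45 lists with 5 or more tested members, under the 17 other fits and the mean over all probe sets of a gene), 792 moved by no more than the spread between arrays. A further 16 moved beyond it with the same sign, and 2 moved beyond it and changed sign. Medians that crossed 0 within the spread count among the 792. The coagulation median, for example, went from 0.067 to -0.054 with the labelling kind as a block. Of the 102 named genes that passed the threshold, 44 passed it under every alternative that tested them and 0 changed sign. Where the groups did not overlap, leaving out arrays could not change the sign. Fitting the 6 arrays of both groups alone gave 479 calls for regenerated against passage 1 (277 up, 202 down), 2 collagen rises and 6 proteoglycan and matricellular rises. The arrays of the regenerated labelling kind alone gave 501 calls (182 down), 1 collagen rise and 5 proteoglycan rises, and the median of that list was 0.92 there and with the labelling kind as a block. With the kind as a block 35 calls remained against passage 4. A model without intensity trend gave 2 collagen rises. The stricter filter moved the fibroblast median to 1.36 and the adipocyte median to -2.18, which a pseudocount of 64 put at 0.44, and the mean over all probe sets moved the antigen processing median to -0.57. With 1 array left out, calls ran from 291 to 1238 (up 165 to 536, down 126 to 723), and from 895 to 2406 against passage 4. Medians then ran from -0.93 to -0.65 for antigen processing, -0.66 to -0.19 for chemokines, -0.31 to -0.16 for glycolysis and hypoxia, -0.32 to -0.026 for immediate early genes, 0.050 to 0.19 for lysosome genes, 0.65 to 0.93 for proteoglycans and -0.19 to 0.073 for p53 and senescence genes (0.073 without regenerated array 2). Counts ran from 3 to 6 falls for antigen processing, 2 to 4 for chemokines and for complement, and 1 to 3 rises for collagens and 3 to 8 for proteoglycans. The cause of these shifts was not tested.

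The replicate block, which pairs arrays by replicate number, gave 554 calls (294 up) and 7 proteoglycan rises. Deviations of same-numbered arrays from their group means correlated at -0.14, -0.11 and -0.079, so the numbers were not taken to pair the samples. Dim probe sets limit what can be seen: probe sets below the filter were not tested, and those whose passage 1 signals lay near the added 16 have understated changes.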

Other observations

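Some genes outside the lists of the report also changed; they were chosen after their values were seen and carry no count. IFNB1, interferon beta, read 81.7, 199 and 122 in passage 1 and 26.4, 16.1 and 3.16 in regenerated cells, lower on all of them (-2.27 ± 0.39, adjusted p = 0.00762). CEBPD, a transcription factor of the acute-phase response, read 1963, 1533 and 1032 in passage 1 against 237, 283 and 397 in regenerated cells on 1 of its 3 probe sets, all of which fell (-2.23, -1.91 and -1.15). The last of these lost its call without passage 1 array 1 or 2 or regenerated array 2 or 3 (0.086 to 0.156). GEM, a small GTPase, read 681, 358 and 747 in passage 1 against 2188, 2729 and 2869.6 in regenerated cells and rose (2.15 ± 0.26, adjusted p = 0.00172). AEBP1, a collagen-binding secreted protein, read 254, 303 and 265 in passage 1 against 1008, 858 and 1304 in regenerated cells and rose (1.87 ± 0.25, adjusted p = 0.00232). Neither pair of groups overlapped. ITIH5, a hyaluronan-binding protein, rose by 2.81 (adjusted p = 0.0047), and BYSL, a ribosome assembly factor, fell by -1.59 on 1 of its 3 probe sets (adjusted p = 0.0099) and by -1.44 on a brighter one, lost without passage 1 array 2 or 3 or regenerated array 2 or 3 (0.0664 to 0.122). The last BYSL probe set changed by -0.74.

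The remaining lists held few calls. Of 26 solute carriers 3 rose and 3 fell, SLC1A1 and SLC38A1, an amino acid transporter (2.14; lost without regenerated array 2, 0.0931), leading the rises and SLC29A1, a nucleoside transporter (-1.86; lost without regenerated array 2 or 3, 0.0632 and 0.0583), the falls. Of 51 lysosome and autophagy genes 2 rose, WIPI1, an autophagy protein (1.22, adjusted p = 0.00879), keeping its call without each array. Of 49 chaperones 2 rose, of 57 splicing factors 1 fell, of 27 p53 and senescence genes 1 rose and 2 fell, and of 21 immediate early genes 2 rose and 2 fell. Without regenerated array 2, 1 solute carrier rose and 2 fell, 1 lysosome gene, 0 chaperones, 1 p53 gene and 0 immediate early genes rose, and 0 splicing factors, 0 p53 genes and 1 immediate early gene fell. Without regenerated array 3 the counts were the same but for 2 solute carrier rises, without passage 1 array 3, 0 chaperones rose and 0 p53 genes and 0 splicing factors fell, and without passage 1 array 2, 3 chaperones rose and 0 splicing factors fell. In the insulin-like growth factor axis 1 of 11 fell, STC1 (-2.23; lost without regenerated array 2, 0.0538). In the list of VEGF, angiopoietin and Notch signalling genes 1 of 18 rose, UNC5B (1.45), a call lost without regenerated array 1, 2 or 3 (0.0552 to 0.0659). VEGFA, of this list, rose by 0.87 (adjusted p = 0.0291) on a dimmer probe set and changed by -0.34 on its brightest. In the endothelial-to-mesenchymal transition list FAP rose and VCAN fell among 18. Limma called 0 of 15 growth factors and receptor kinases (4 at an unadjusted p under 0.05), 0 of 8 Wnt genes (1), 0 of 8 neural markers (2), 0 of 4 erythrocyte and platelet markers (0) and 0 of 2 lymphatic endothelial markers (0). Neural markers summed to 11442 to 12726 in passage 1 and 11701 to 19047 in regenerated arrays.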
